A study of Mus musculus with 2 samples.

Results

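The array carried 16181 probes of 60 bases that name no gene but a genomic interval and a strand, written as a chromosome, a start, an end and F (forward) or R (reverse). They cover 4607 such intervals, which the array's annotation calls lincRNA regions, for long intergenic noncoding RNA. A probe was a member where it was no control spot, carried such a name in both array files, and lay well above its local background on both arrays. That left 4746 probes, called measured here, in 2317 regions, out of 27398 measured probes of all kinds on an array of 55681 probes. The choice used the names and the background call, not the size of the difference between the arrays. The call does leave out dim probes that fell to background in either culture, and these are described apart near the end.

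The RNA came from dissociated hippocampal neurons of ICR mouse embryos at embryonic day 16.5, grown in 5.5% serum, given 5 µM Ara-C against dividing glia, and harvested at 12 days in vitro. The control culture had no further treatment named in its title. The treated culture was exposed for 2 days to tetrodotoxin (TTX), a toxin that silences firing by closing off neuronal sodium channels. Its dose is 2 µM according to the design text but 2 mM according to the source name. Each group was 1 array, so no difference has a replicate check, no test between the groups was possible, and a difference between the cultures cannot be told apart from one between the 2 RNA samples or labellings. Firing was not recorded.

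Long intergenic noncoding RNAs are transcripts that lie apart from protein-coding genes and hold no long open reading frame. Many are spliced and polyadenylated as messenger RNAs are, but are less abundant, more tissue-restricted and often nuclear. A probe placed in an interval that once looked intergenic can also lie in an unannotated exon, a long 3′ end or an intron of a neighbouring gene, so the strand and distance of the nearest gene are part of what each probe measures. Activity in neurons also gives transcripts from enhancers and antisense transcripts, some of which fall in such intervals.

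The sequences below are those on which the results turn. All are as printed on the array, read 5′ to 3′ on the strand of the region, with coordinates of mouse build mm9, and capitals mark AATAAA, the commonest signal for polyadenylation. That string, searched for on the probe's own strand only, was in 634 of 16181 region probes (3.92%), so it is no mark of the probes shown. The first 5 are the probes of the region with the largest single decrease, and lie within 388 bases of chromosome 2.
chr2:94092066-94092125, reverse: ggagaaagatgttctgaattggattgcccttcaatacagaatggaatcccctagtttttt
chr2:94092138-94092197, reverse: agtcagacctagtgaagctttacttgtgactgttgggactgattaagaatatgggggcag
chr2:94092198-94092257, reverse: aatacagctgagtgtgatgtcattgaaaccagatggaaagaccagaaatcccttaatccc
chr2:94092285-94092344, reverse: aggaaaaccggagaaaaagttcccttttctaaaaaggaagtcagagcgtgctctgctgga
chr2:94092394-94092453, reverse: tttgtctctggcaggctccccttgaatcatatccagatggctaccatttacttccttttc

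The next 4 give 1 probe from each of 4 forward-strand regions beside Ttc28 on chromosome 5, the longest run of regions that were higher in TTX.
chr5:111539940-111539999, forward: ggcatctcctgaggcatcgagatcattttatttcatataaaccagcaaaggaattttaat
chr5:111565902-111565961, forward: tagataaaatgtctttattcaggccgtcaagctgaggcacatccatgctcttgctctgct
chr5:111602672-111602731, forward: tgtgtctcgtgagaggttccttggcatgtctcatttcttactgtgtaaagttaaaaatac
chr5:111612239-111612298, forward: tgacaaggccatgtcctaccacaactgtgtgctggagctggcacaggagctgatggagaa

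A pair on chromosome 14 is shown because the probes come from separate regions and share a run of 57 bases, so that either can bind RNA of the other.
chr14:26845986-26846045, forward: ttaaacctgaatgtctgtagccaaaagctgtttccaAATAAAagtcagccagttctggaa
chr14:26985597-26985656, forward: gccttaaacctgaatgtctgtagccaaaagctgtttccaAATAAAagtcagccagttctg

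The last 5 are the probe with the largest single increase and 2 pairs of neighbouring probes of 1 region each that gave different answers.
chr13:98066397-98066456, forward: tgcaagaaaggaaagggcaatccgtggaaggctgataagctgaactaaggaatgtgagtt
chr2:170032536-170032595, reverse: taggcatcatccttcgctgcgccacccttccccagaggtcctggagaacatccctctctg
chr2:170032605-170032664, reverse: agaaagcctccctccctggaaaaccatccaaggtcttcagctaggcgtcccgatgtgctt
chr15:86040139-86040198, forward: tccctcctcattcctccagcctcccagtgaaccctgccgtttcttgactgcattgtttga
chr15:86040199-86040258, forward: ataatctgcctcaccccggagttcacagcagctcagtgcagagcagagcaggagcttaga

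Of the 16181 region probes, 5552 (34.3%) were well above background in the control and 5218 (32.2%) in TTX. The 4746 above it on both were 29.3%, against 19426 of 31399 probes (61.9%) that carry a gene symbol. The region probes gave low signals: their median normalised signal, in the scanner's linear units after quantile normalisation, was 91.8 in the control and 92.2 in TTX, with quartiles of 45 and 260.0 in the control. The dimmest 20% of all measured probes, those with a geometric mean signal under 67.8, held 40.1% of the region probes and 14.9% of the gene probes, and the brightest 20% held 3.86% and 22.4%. A probe's brightness depends on its sequence as well as on its transcript, so signals of different probes were not compared as levels.

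The label of intergenic regions held only in part against the array's own annotation. Of 2304 measured regions with coordinates, 516 (22.4%) had a probe of a named gene inside their interval, and in 344 (14.9%) that gene was on the region's own strand. Of 4713 measured region probes with a position, 110 overlapped a gene probe, and 256 overlapped another region probe on the same strand. The nearest named gene was protein-coding for 3607 (76.5%) and a long noncoding RNA for 935 (19.8%).

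Strand and length hardly separated the measured probes from the rest. Forward-strand probes were 49.3% of the measured and 50.5% of all region probes. The median interval was 12976 bases for measured probes and 13132 bases for the 11435 others, and the measured share lay between 28.9% and 30.1% in all 4 length classes. Base composition and position did differ. The measured share was 24.9% among 3342 probes with up to 36.7% G and C, and 42.4% among 2927 probes with 51.7% or more. Distances to a gene were taken between the region probe (for a region, its nearest measured probe) and the nearest probe of the gene, so a region's interval can hold that gene probe. The median gap was 15361 bases for measured probes and 21720.5 bases for the others, and that gene was on the same strand for 60.2% against 49.4%. Probes with AATAAA were measured no more often than the rest, at 4.0% of the measured and 3.88% of the others.

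In the TTX culture 75 of the 4746 measured region probes (1.58%) were at least 2-fold lower and 113 (2.38%) at least 2-fold higher. The background over all 27398 measured probes was 2.81% lower and 2.11% higher, and over the 19426 gene probes 3.3% lower and 2.06% higher. The lower share of the region probes was thus below that of the array, and their higher share was close to it. Set beside gene probes of the same class of signal, region probes had the smaller share in every class, in both directions. Among the dimmest probes, as defined above, 1.73% of region probes and 4.01% of gene probes were lower. There 2.99% and 3.7% were higher. In the next class of signal 1.85% and 5.23% were lower, and 3.05% and 3.25% higher, a small gap. The median log2 difference, TTX minus control, was 0.02 for region probes and 0.02 for all measured probes. Most region probes hardly moved: 4036 (85.0%) differed by less than 1.5-fold, and the quartiles were -0.22 and 0.28. The 75 lower probes had a median signal of 149 in the control and 44.2 in TTX, and the 113 higher probes of 39.7 and 129, so both sets were dim on 1 of the arrays.

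The split between directions depended on the scaling of the arrays. With 75th percentile scaling, or with no normalisation, 54 region probes were lower and 151 higher, and with scaling on spike-in controls 65 were lower and 128 higher. Under normexp, another background correction, with an offset of 50, 26 were lower and 27 higher, all of them among those given above. A change of scaling moves all probes, and the background shares given earlier are for quantile normalisation only. The counts under the other settings thus have no matching background here. 

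The place of the spot on the array also went with the call. The spot rows were divided into 8 blocks of 48, counted from the top. Over all measured region probes the share at least 2-fold higher was 6.08%, 4.07%, 2.69% and 1.47% in the upper 4 blocks and 1.48%, 1.39%, 0.66% and 1.63% in the lower 4. The share at least 2-fold lower was highest in the last block, at 3.26%. In the dimmest 20% of signals, 43 of 941 region probes (4.57%) in the upper 4 blocks were higher, against 1.45% in the lower 4, and 1.06% against 2.39% were lower. Gene probes as dim showed the same order, with 5.16% against 2.14% higher and 3.09% against 4.99% lower. Outside the dimmest 20%, 39 of 1400 region probes (2.79%) in the upper 4 blocks were higher, against 17 of 1441 (1.18%) in the lower 4. There 1.57% against 1.39% were lower. Gene probes outside the dimmest 20% gave 1.98% against 1.56% higher and 3.25% against 3.1% lower. Centring the differences within each block and signal class left 74 region probes lower and 111 higher.

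Regions with several probes give a check within the arrays, since the probes of 1 region sit at scattered rows. There were 1183 regions with at least 2 measured probes. Within them the SD of the log2 difference was 0.33, against 0.49 over their 3612 probes. The repeat spots of 261 probes printed 10 times had an SD of 0.15, or 0.31 in the dimmest 20%, so the spread within regions was above that of repeat spots as a whole and close to that of dim ones. Of the 75 lower probes, 55 had a measured companion in the region, and the companions' median was lower for 50 and past 2-fold for 31. Of the 113 higher probes, 88 had a companion, with a higher median for 67 and past 2-fold for 25. These counts are not set beside those for companions of probes within 2-fold. All measured probes were at least 2-fold lower in 9 regions and at least 2-fold higher in 8. These 17 regions, counted after their values were seen, are described next.

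The region with the lowest single probe was chr2:94082835-94101939, reverse strand. Its 5 probes read 3763, 2401, 1851, 401 and 1171 on the control array and 409, 195, 214, 44.7 and 170 on the TTX array, in the order of their sequences above. Every probe was lower in TTX, with log2 differences from -3.62 to -2.78. The spots lay in rows 40 to 323. The scanner software's own error for the log2 difference had a median of 0.21 over these probes. That error was the same 0.204 in each of the 5 brightest regions, so for bright spots it says little of their own noise. The nearest gene probe, of Ttc17, a protein with tetratricopeptide repeats, was 48492 bases away on the same strand and read 2212 and 1858, a log2 difference of -0.25.

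A second reverse-strand region lies nearby on the same chromosome, at chr2:94046243-94070067. Its 5 probes were above background on the control array only, so they are no members, and each gives a bound. They read 230, 75.3, 106, 140 and 67.5 on the control array and 17.4, 4.61, 7.25, 6.62 and 6.57 on the TTX array. The bounds were at least 11.7-fold, 3.83-fold, 5.42-fold, 7.12-fold and 3.44-fold lower. A bound takes the dim array's lowest signal called above background, or the probe's own signal if higher. All 10 probes of these 2 regions were lower in TTX, across rows 40 to 340.

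On chromosome 18 the region chr18:38776580-38841080, reverse strand, had 2 measured probes, which read 252 and 735 in control and 22.3 and 99.5 in TTX. Their log2 differences were -3.50 and -2.88. The other 3 probes of the region were above background on neither array. A forward-strand region that overlaps it, chr18:38836368-38935650, had 1 measured probe at 363 and 67.0, a difference of -2.44. The nearest gene was Spry4, an inhibitor of receptor tyrosine kinase signalling to ERK, 31297 bases from the first region's probes on the same strand. The Spry4 probe was above background on neither array, at 15.1 and 3.64.

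The region chr7:91558475-91733625, forward strand, is long, but its 5 measured probes lie within 435 bases. They read 265, 276, 227, 494 and 379 in control and 45.3, 56.3, 49.4, 74.3 and 59.2 in TTX. All were lower, by log2 differences of -2.20 to -2.73. Gm2115, whose probe lay inside the region on the same strand, 2469 bases from the nearest of them, read 469 and 270, a difference of -0.80, smaller than that of any of the 5 probes. The remaining probe of the region was above background on neither array, at 8.74 and 4.44.

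Interferon-inducible genes of the Ifi200 cluster lie around chr1:175705225-175717250, reverse strand. Its 3 measured probes read 196, 352 and 205 in control and 28.4, 87.4 and 56.5 in TTX, with differences of -2.79, -2.01 and -1.86. The 2 other probes were above background on the control array only, at least 4.26-fold and 5.72-fold lower. The probe of the pseudogene Ifi203-ps lies inside the region on the same strand, 3036 bases from the nearest measured probe, and was also above background in control only, at 90.1 and 12.0. A second region of the cluster, chr1:175654606-175672031, had 1 measured probe at 91.6 and 35.1 (-1.38), and another above background in control only, at least 4.28-fold lower. Ifi207, its nearest gene, had no probe above background on both arrays.

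Of 3 regions beside the Duxbl genes on chromosome 14, those that share the 57 bases shown above were lower at most probes and do not count as independent. In chr14:26973425-26986650, forward strand, the probes read 487 and 1898 in control and 149 and 750 in TTX, differences of -1.71 and -1.34. In chr14:26834450-26847000, forward strand, 3 probes gave -1.52, -1.47 and -1.47, and another, at 214 and 252, gave 0.24. The remaining one, chr14:26835914-26845344, forward strand, lies inside that interval and was dim, with 1 measured probe higher, at 19.01 and 49.0 (1.37), and another above background in control only, at least 1.35-fold lower. The probes of Duxbl1 and Duxbl2, homeobox genes that neighbour these regions on the same strand, were above background on neither array.

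Smaller sets lay beside a named gene that was itself lower. The region chr1:52507332-52514490, reverse strand, lay 806 bases from the probe of Nab1, a corepressor of EGR transcription factors, on the same strand. Its probes read 2570, 1912 and 1723 in control and 1179, 789 and 684 in TTX, differences of -1.12 to -1.33, and Nab1 read 490 and 227, a difference of -1.11. The overlapping regions chr7:144563845-144603732 and chr7:144567251-144602440, reverse strand, overlap probes of 9430038I01Rik. Their 5 probes gave -1.01 to -1.24, and the 2 gene probes they overlap gave -1.08 and -0.91, while another probe of the gene was dimmer, at 30.7 and 22.2. The regions share up to 57 bases between probes. On the strand of Dleu2, a long noncoding RNA, chr14:62294849-62301165, reverse strand, read 92.3 and 241 in control and 44.2 and 106 in TTX. Its differences were -1.06 and -1.18, and the measured probe of Dleu2 gave -0.52. Another Dleu2 probe was above background in control only, at 57.2 and 16.0 (-1.84), and the last on neither array.

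Other regions nearest to Dleu2 were mixed. The probe of chr14:62254361-62301162 went from 108 to 29.2, a difference of -1.89, and lay at row 319. The median over 3 probes of chr14:62280837-62283960 was -0.87, with a range of -1.27 to -0.84. The 2 probes of chr14:62263564-62307496 gave -0.58 and 0.19, so not every probe near Dleu2 was lower.

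The remaining lower regions of the naming rule rested on 1 measured probe each. These were chr19:5841103-5845579, forward strand, at 104 and 23.8 (-2.13), chr9:78104935-78116974 at 167 and 43.9 (-1.93), chr8:130666467-130821034 at 88.2 and 24.2 (-1.87) and chr17:8718223-8949898 at 140 and 41.3 (-1.76). The chromosome 19 probe lies opposite Neat1, the scaffold RNA of nuclear paraspeckles, whose own probe on the other strand went from 484 to 684 (0.50). The other 2 probes of that region were above background on neither array.

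The largest set of higher regions was on the forward strand of chromosome 5, where 4 regions from chr5:111538420-111540142 to chr5:111612191-111652286 held 11 measured probes. Control signals ran from 21.7 to 118 and TTX signals from 65.5 to 308. Every probe was higher, with log2 differences from 1.38 to 1.86, and the medians of the regions were 1.58, 1.80, 1.60 and 1.63. The spots lay in rows 14 to 347. No pair of probes from different regions shared more than 8 bases in a row. Ttc28, another tetratricopeptide-repeat protein with probes on both sides of the regions and on the same strand, read 557 and 1582 at 1 probe and 1479 and 4322 at another, differences of 1.51 and 1.55. Another of its probes, on the near side, was above background in TTX only, at 14.4 and 54.4.

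Of the other higher regions, those next to Mgam and 2610035D17Rik also moved with the gene beside them. The overlapping regions chr6:40693617-40720167 and chr6:40699474-40719122, forward strand, held 6 probes with control signals of 22.7 to 128 and TTX signals of 58.9 to 353. Their differences were 1.23 to 1.69, and the measured probe of Mgam, maltase-glucoamylase, went from 20.01 to 61.3 (1.62) at 10 bases on the same strand. Probes of the 2 regions share up to 49 bases, so they are not 6 separate measurements. The 3 probes of chr11:112905201-113062945, reverse strand, read 132, 271 and 129 in control and 283, 585 and 320 in TTX. They gave 1.101 to 1.31, around the 1.18 of the overlapping probe of 2610035D17Rik, a long noncoding RNA. A more distant probe of that RNA gave 0.48.

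A longer reverse-strand region at the same place, chr11:112898724-113062945, was divided. Its first 3 probes gave 1.55, 1.26 and 1.22, and the next 4 gave 0.07, 0.16, 0.28 and 0.15. The first of those 4 starts directly after the last of the 3. The 7 probes form no unbroken run, since they span 18306 bases and the probes of the shorter region lie within that span. The last probe of the longer region was above background in TTX only, at least 2.04-fold higher. The forward-strand region of the same interval gave -0.13 and -0.20 at 2 probes.

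The last of the 8, chr1:196802568-196847687, forward strand, was dim on both arrays. Its 2 probes read 30.1 and 25.5 in control and 65.5 and 137 in TTX, differences of 1.12 and 2.43. Its other probe was above background in control only, at 18.6 and 14.3, and so did not follow them. Cd34, 15415 bases away on the same strand, had the opposite sign, at -1.01.

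A pair of overlapping forward-strand regions on chromosome 14 was higher at most probes, though not at all. In chr14:55671783-55680316 3 probes gave 1.25, 1.62 and 1.77, another, at 462 and 435, gave -0.08, and the last was above background in TTX only. In chr14:55672705-55675212 the probes gave -0.08, 1.51 and 1.32. Zfhx2, a homeobox gene on the opposite strand, gave -0.56 at its measured probe, while a probe of it nearer to the regions was above background in TTX only, at 19.2 and 38.4.

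Under normexp 6 regions were lower and 2 higher by this rule. The chromosome 2 region kept a median of -2.76, and the first of the Ttc28 regions had 0.95, below 2-fold.

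Single probes gave larger increases than any multi-probe region, and they were dim and mostly near the top of the array. The largest was in chr13:98062189-98066613, forward strand, at 18.6 and 228, a difference of 3.61, at row 24. A neighbouring probe of that region was above background in TTX only, at 10.4 and 27.3, at least 1.71-fold higher, and the other was above background on neither array. Next among regions with 1 measured probe were chr1:160888257-160910594 at 76.6 and 512 (2.74, row 5), chr15:101084597-101095097 at 29.2 and 185 (2.66, row 5) and chr14:21621875-21638625 at 45.5 and 249 (2.45, row 10). On chromosome 1, both other probes of that region were above background in control only, at least 1.38-fold and 1.73-fold lower, so they went the opposite way. The chromosome 15 probe lies 17960 bases from Nr4a1, an activity-induced nuclear receptor on the opposite strand, which went from 6524 to 191 (-5.10).

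The remaining higher regions named by rank were chrX:18810088-18814982 (2.22, row 51), chr5:14921737-14978834 (2.08, row 2), chr15:77164450-77201325 on the reverse strand (1.98, row 3), chrX:92149320-92151107 (1.89, row 323), chr2:128217275-128217972 (1.88, row 66) and chr2:157838320-157853495 (1.85, row 140). Each had 1 measured probe, with control signals of 22.1 to 45.1 and TTX signals of 93.4 to 168. Of the 10 higher regions named by rank, 9 had their spot in the upper 4 blocks of rows and 0 had several measured probes. Of the 10 lower ones, 5 lay wholly in those blocks and 4 had several measured probes.

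Some regions with bright probes were divided. In chr2:170029045-170034220, reverse strand, the probe shown above went from 1581 to 5650 (1.84, row 362), while the probe 9 bases further on read 1011 and 996 (-0.02). In chr15:77164450-77201325, forward strand, 5 probes gave -0.41, 0.85, 0.60, 1.05 and 1.47, with signals up to 1336 and 2762. In chr15:86035939-86042539, forward strand, the adjoining probes shown above gave -0.01 at signals of 1220 and 1209 and 3.07 at 23.0 and 193.1, the latter at row 15. The cause of these splits was not tested.

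The widest split within a region was in chr5:33174092-33200792, forward strand, where 4 dim probes ran from -1.5 to 2.44. In chr15:62007025-62090191, in the interval of the long noncoding RNA Pvt1, 3 probes gave 2.03, -1.08 and -0.86. In chr18:35967988-35968812 the 2 probes gave -0.55 and 2.36. The high probe lay in rows 46 to 81 in these 3 regions.

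A region probe's difference ran most closely with that of its nearest gene at short distance and on the same strand. Within 5 kb on the same strand, across 727 region probes with a measured gene probe, the differences correlated at r = 0.66, and 74.0% had the same sign. Within 5 kb on the opposite strand r was 0.18 across 317 pairs, with 61.8% of the same sign. At 5 to 50 kb r was 0.16 on the same strand (n = 1016) and -0.06 on the opposite one (n = 682), and beyond 50 kb it was 0.10 and 0.07. These are descriptions: all points share the same 2 arrays, and the 727 pairs use 227 gene probes. Without regions that hold a probe of a gene on their own strand, r within 5 kb was 0.60 on the same strand (n = 291) and 0.17 on the opposite one (n = 305).

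Where the near gene itself was past 2-fold within 5 kb on the same strand, 31 of 32 region probes had the gene's direction and 17 were past 2-fold with it. On the opposite strand it was 2 of 5, with 0 past 2-fold. The 17 are not separate cases. They include several probes each beside Mgam, 2610035D17Rik, 9430038I01Rik and Nab1, some of which overlap the gene probe or share bases with each other. Among the 75 lower probes the nearest gene was on the same strand for 79.7%, at a median gap of 6901 bases, and was lower for 38 of the 47 measured, with a median of -0.52. Among the 113 higher probes it was on the same strand for 64.6%, at a median gap of 14979 bases, and was higher for 43 of 70, with a median of 0.16. The share of forward-strand probes was 46.7% among the lower and 56.6% among the higher.

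The regions closest to a gene past 2-fold did not all follow it. Those near 2610035D17Rik, 9430038I01Rik and Mgam are given above. The 3 probes of chr2:104657075-104658840, forward strand, gave 0.56 to 0.93, and the overlapping gene 2310047K21Rik, a noncoding RNA, gave 1.13. The probe of chr5:149801336-149806799, reverse strand, was dim, at 23.0 and 21.3 (-0.11), 87 bases from a probe of Katnal1, a microtubule-severing protein, that gave 1.105. That Katnal1 probe read 26.2 and 56.4 at row 10, and the gene's 2 brighter probes both gave 0.12.

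Of 48 genes induced by neuronal activity on a list drawn up for this work, 40 were measured on both arrays, and 21 of those were at least 2-fold lower and 0 higher, with a median of -1.25, beside the background of 3.3% lower for gene probes. Only 11 of them were the nearest gene of any measured region, 24 regions in all. Of those 24, 2 had a median at least 2-fold lower and 1 at least 2-fold higher. Both lower ones had Spry4 as nearest gene, at 31297 bases on its strand and at 90418 bases on the opposite strand. The higher one lay opposite Nr4a1. Over all 2317 measured regions the median was at least 2-fold lower in 33 (1.42%) and at least 2-fold higher in 39 (1.68%). The median of the 24 was -0.02.

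The regions near some genes of the list that read lower in TTX were not alike. At Npas4, an activity-dependent transcription factor whose probe went from 779 to 67.5 (-3.53), the regions on its strand at 7336 and 17036 bases gave -0.55 and -0.41. At Nr4a1 the forward region of the interval above, 11836 bases away on its own strand, read 154 and 118 (-0.39), and of the reverse-strand regions 1 gave 0.00 and the other the 2.66 given above. At Spry4, which was not above background on either array, the regions gave -3.19 and -2.44, as above, and a bright forward-strand region, chr18:38761187-38805576, read 1762 and 1549 (-0.19). At Dusp6, a phosphatase of ERK that went from 3890 to 1383 (-1.49), the region probe at 503 bases on the same strand read 31.5 and 28.8 (-0.13). At Egr3, which was not above background on both arrays, the region 4809 bases away gave -0.38.

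Most regions whose nearest gene was a named long noncoding RNA were within 2-fold. Of 30 such RNAs on a second list 22 were measured, with 1 at least 2-fold lower, 2 at least 2-fold higher and a median of 0.15, beside the background for gene probes of 3.3% lower and 2.06% higher. The 45 regions nearest to 15 of them held 125 measured probes and had a median of 0.00. Of the 45, 3 had a median at least 2-fold lower and 2 at least 2-fold higher, beside 1.42% and 1.68% of all measured regions. Regions on the strand of Malat1, an abundant nuclear RNA, ranged in median from -0.15 to 0.14, beside -0.05 for its probe. Those within 5 kb of Tug1 lay between -0.32 and 0.28, those nearest to Mirg, a microRNA host RNA, between -0.17 and 0.39, and the reverse-strand region of Pantr1 was at -0.10, beside -0.11 for the gene. Pvt1 was the RNA of the list that was at least 2-fold lower, at its brighter probe, which went from 315 to 156 (-1.01), while its other measured probe gave -0.35. The 4 regions on the strand of Pvt1 had medians of -0.58, -0.16, -0.86 and -0.67, the last in chr15:62090565-62091770 at 825 and 475. Another, on the opposite strand and 511287 bases away, gave -0.24. The forward-strand regions with Gm2694 as nearest gene, 52424 and 52469 bases away, gave 0.43 and 0.44, and the gene gave 0.45. Those regions overlap each other, so they do not count as separate cases. A reverse-strand region at 21605 bases, opposite the gene, gave -0.32.

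The 3 lower regions of the 45 were those of Neat1's opposite strand and of Dleu2 given above. The 2 higher ones were chr17:12990484-13018375, forward strand, and chr19:5834117-5835940, reverse strand. The first lies in Airn, the imprinted noncoding RNA that silences Igf2r, 2356 bases from an Airn probe, and went from 245 to 564 (1.204), while both measured Airn probes gave 1.21 and 0.91. A forward region further along, chr17:13008796-13023201, gave 1.28, 0.59 and 1.06 over 3 probes. The reverse-strand region chr17:12990484-13018375 gave 0.01 at its 1 measured probe. Mas1, a receptor gene on that strand beyond, went from 3677 to 912 at its brighter probe (-2.01). The second, on Neat1's strand at 7962 bases, went from 30.2 to 73.8 (1.29).

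Strand pairs offered a further view, since 1067 intervals had probes on both strands. Both strands were measured in 379 of them, 1 strand in 455 and neither in 233. The medians of the strands had the same sign in 222 of the 379 (58.6%), and their differences correlated at r = 0.12, a description over intervals on the same 2 arrays. Of the 4 pairs with the highest signals, 3 were on chromosome 17, in chr17:39960567-39992817 and regions inside it. The reverse strand there gave a median of 0.06 over 5 probes, and the 3 forward regions gave 0.08, 0.00 and 0.27. Whether these intervals hold ribosomal RNA sequence, which would also be bright, was not checked, since no annotation of this build was used here. In the other pair, chr7:108209996-108216032, the 2 forward probes gave 0.01 and 0.07 and the reverse probe 0.20.

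The brightest regions were also steady. The region chr2:156213798-156216885, reverse strand, holds 2 probes of Norad, a cytoplasmic noncoding RNA that binds Pumilio proteins. Its 3 probes had median signals of 45186 and 50148 and a median difference of 0.14, and the nearer Norad probe, 111 bases from the region's nearest probe, gave 0.17. The others were chr17:48068261-48087905 (-0.13), chr17:17481706-17482457 (-0.19), chr11:22681800-22707775 (0.22) and chr7:108209996-108216032, reverse strand (0.20). Median signals of these regions were 29380 to 45985 on the control array and 33634 to 50148 on the TTX array. In the brightest 20% 0 of 183 region probes were at least 2-fold lower and 1 (0.546%) was higher, beside 1.77% and 0.643% of gene probes as bright.

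Members at the edges of the rules were ordinary. The dimmest measured probes, in chr3:26975624-26988699 and chrX:120134722-120138152, read 17 and 17.5 in control and 20.4 and 20.7 in TTX. The probes just inside 2-fold lower, in chr17:84470764-84486339 and chr8:69416817-69417583, both gave -1.0, as did those just outside, in chr15:61984389-62102500 and chr17:87483814-87493039. On the higher side chr7:134369091-134376468 and chr16:23992037-24001037 gave 1.01 and 1.02 just inside, and chr18:3003075-3016150 and chr17:95150800-95180650 gave 0.99 and 1.0 just outside. The brightest unmeasured probes, in chr2:94046243-94070067 and chr7:133402766-133415516, were above background on 1 array.

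Region probes above background on 1 array only were 806 for the control array and 472 for the TTX array. With the bound described above, 82 of the first were at least 2-fold lower and 229 of the second at least 2-fold higher. No share over all probes by this bound is set beside these counts, so they are not read as particular to region probes. Spot position differed here too: of the 82, 58 lay in the lower 4 blocks of rows, and of the 229, 207 lay in the upper 4. The highest bounds in TTX were chr7:133402766-133415516 (16.9 and 647, at least 38.3-fold, row 383), chr3:87575891-87576343 (4.60 and 406, at least 25.4-fold, row 273), chr13:98479793-98481177 (4.20 and 353, at least 22.1-fold, row 3), chr8:73645975-73696275 (3.88 and 233, at least 14.6-fold, row 14) and chr2:173420987-173480087 (4.26 and 216, at least 13.5-fold, row 52).

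No other probe of these 5 regions shared the difference. In the chromosome 3 region a companion was measured on both arrays and gave 0.14, and all other probes were above background on neither array. In control the highest bounds after the chromosome 2 region were chr16:40592137-40594284 (131 and 7.11, at least 6.68-fold, row 380), chr4:136856064-136875614 (129 and 4.97, at least 6.58-fold, row 380) and chr13:38757503-38767928 (129 and 4.02, at least 6.58-fold, row 383). In the chromosome 16 region the companions were measured and gave 0.00 and -0.26, and in the other 2 they were above background on neither array. Of the regions with the 5 largest bounds each way, only the chromosome 2 region had further probes with the same difference.

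The cultures carried the RNA of neurons, with glial RNA present. All 8 neuronal markers were measured, at control signals from 3857 to 48949 and a median difference of -0.05. All 6 markers of hippocampal excitatory neurons were measured, with 1 lower, Neurod6 at -1.102, and 1 higher, Prox1 at 1.02, both transcription factors. Interneuron markers were all measured too, with Npy at -1.599 and Calb2 at 2.27. Astrocyte markers were measured for 5 of 6, microglial for 5 of 6, oligodendrocyte for 4 of 6, fibroblast for 3 of 4 and endothelial for 2 of 4, and no measured marker of these lists was past 2-fold. Their medians were 0.40, 0.16, 0.01, 0.28 and -0.23. In bulk RNA fewer cells of a type and less RNA per cell cannot be told apart, and the part of cell makeup in the region values was not tested.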

How the data were processed

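Cy3-labelled total RNA was hybridised to Agilent 8x60K arrays, 1 for each of 2 cultures. The authors' scanner files hold spot intensity, corrected for background by Feature Extraction, whose version is 10.7.1.1 per the file headers and 9.5.1.1 per the submitters' processing notes. The deposited value table also holds intensity on a linear scale. The design text names quantile normalization, which was applied here to the processed signals of 59305 non-control spots (Python 3.11.15, numpy 2.4.6, pandas 2.3.3) before log2. Outlier spots (131 control, 170 TTX, 0 among members) were left out, and none was saturated. Differences matched the deposited values at r = 1.00.

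Nearest genes are probes with a symbol in a RefSeq table (GRCm38.p6, names only), by mm9 position in the files. Called means past 2-fold. With 1 array per group the number of arrays limits the precision. Normexp used limma 3.58.1 in R 4.3.3. Steps were tested on simulated data.

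Members, gene lists and rules were chosen with earlier results of these data known. The naming rule took up to 10 lower and 10 higher regions past 2-fold under 3 scalings, the 5 brightest, the 5 largest bounds each way, the 4 widest splits, the 6 closest to a gene past 2-fold or on the activity list, the 4 brightest strand pairs and those at the edges. Other regions were named after their values were seen.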

Additional observations from a re-analysis of the deposited data

How the results depend on the processing

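The counts of region probes past 2-fold moved with the filter, the background correction taken with its offset of 50, the size rule and, on the higher side, the spot's place. The cause was not tested, and normexp was not run without the offset. The background shares over all probes given earlier hold for the main setting only. Against 75 lower and 113 higher, normexp gave 26 and 27, no filter on dim probes 1098 and 1140, a stricter filter (above the 25th percentile of signal) 35 and 42, a 1.5-fold rule 303 and 407, and a 3-fold rule 26 and 41. The upper 4 row blocks (2341 probes) held 32 lower and 82 higher, and the lower 4 (2405 probes) held 43 lower and 31 higher. For regions with all of at least 2 probes past 2-fold, 9 lower and 8 higher, an alternative chosen after seeing the data, normexp gave 2 higher, no filter 17 and 18, 1.5-fold 23 and 29, and 3-fold 4 and 2. The upper row blocks alone gave 3 and 4, and the lower ones 4 higher.

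The other scalings, the deposited values, the rule on spots and centring by row block kept these counts within 1.5 times. Of 431 values of 50 named regions under alternatives, 349 moved by less than the spread, 77 by more, and 5 changed sign: chr15:86035939-86042539 under the stricter filter (-0.013) and, with no filter, chr19:5841103-5845579 (0.21), chr1:160888257-160910594 (-1.67), chr2:157838320-157853495 (-0.38) and chr5:14921737-14978834 (-0.35), since each then takes other probes into its median. The same-strand correlation within 5 kb stayed between 0.66 and 0.67 over 5 alternatives chosen after seeing the data. No paired analysis was possible because each group has 1 array.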
